A study of Drosophila melanogaster with 9 samples.

Results

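A set of 9 genes that stood low in control embryos of Drosophila melanogaster and high in embryos carrying UAS transgenes of 6 neural transcription factors is described here. Its members are lcs (la costa), ng3 (new glue 3), lectin-37Db, CG32071, CG32073, CG8087, CG9759, CG13905 and CG1678, which are 9 of 10221 genes in the deposited table. They were chosen by their measured levels, a low one in the control and a large difference in the 6-factor embryos, outside the immune and digestive families, so the difference that chose them is given below as a description and without a test. All 9 were found in the table and all 9 were among the 6190 genes that passed the filter on low values, which asked for 0.5 RPKM in 3 libraries. RPKM is a read count scaled by transcript length and sequencing depth. Without the 6-factor libraries 7 of the 9 would have passed it, and ng3 and CG1678 would not.

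RNA came from whole embryos collected from stage 16 until the trachea held air, more than 200 embryos per collection, with 3 biological replicates per genotype and 9 libraries in all. Every genotype carried the Insc-Gal4 driver, made from inscuteable, which neural stem cells express. In the control that driver stood over an OregonR chromosome set. The Quad genotype added UAS transgenes of SoxN, wor, Kr and ase. The Hexa genotype had these 4 and in addition UAS transgenes of nub and hb. No genotype carried the UAS transgenes without the driver, and the labels give each genotype its own experiment number, so genotype, stock background and experiment cannot be told apart. Headers of the linear RPKM columns of Control 2 and Control 3 name another driver (da), a conflict that was not resolved. In whole embryos, fewer cells of a type and less RNA per cell cannot be told apart either.

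Deposited counts summed to between 8555639 and 11687961 reads per library. Of the driven genes, wor stood at 2.98, 2.56 and 3.11 RPKM in Controls 1, 2 and 3, at 18.0, 10.9 and 16.4 in Quad and at 23.6, 12.9 and 18.2 in Hexa. The level of hb was 1.72, 1.55 and 1.40 RPKM in the controls, 6.99, 2.83 and 1.81 in Quad, which has no hb transgene by its label, and 18.1, 8.87 and 14.7 in Hexa. Not every driven gene was higher. The mean of Kr was 7.24 RPKM in control, 6.07 in Quad and 4.87 in Hexa embryos, where it fell (log2 -0.56, limma adjusted p = 0.0213). That call was not made by edgeR or DESeq2, in the fit of the 2 groups alone, or with Hexa 1 or Hexa 2 left out. SoxN passed in Quad (38.1 against 21.8 RPKM, adjusted p = 0.0187, not kept without Control 1, Control 3 or any single Quad library) and not in Hexa (26.1 RPKM, log2 0.24, adjusted p = 0.218). The mean of ase was 2.40, 4.95 and 5.97 RPKM and that of nub 18.4, 20.6 and 27.5 in control, Quad and Hexa. The rise of hb in Hexa passed in limma (adjusted p = 0.00212) but not in edgeR or DESeq2. That of nub in Hexa (limma adjusted p = 0.0154) did not pass in edgeR, with the 2 groups alone or without Hexa 1. The summed level of muscle, trachea and fat body markers was each 577 RPKM or more in every library. Of 8 neuron markers 1, para, was found by name in the deposited table, and it was tested. Its mean was 14.6 RPKM in control, 15 in Quad and 17.8 in Hexa.

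Some background helps to place the genes. The glue genes of Drosophila encode secreted proteins of the larval salivary gland, with which the animal fixes its pupal case to a surface, and the new glue genes ng1 to ng4 lie beside the glue gene Sgs4. C-type lectins are proteins that bind sugars, and lectin-37Db, also named DL3, is known to bind bacteria and to take part in the encapsulation of foreign bodies by blood cells. No role is given here for lcs or for the genes with CG numbers. The annotation used (BDGP release 6.54) calls CG13905 mat and CG1678 whe.

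The set is made of short genes. The longest annotated transcript was under 1000 bases in 8 of the 9, with CG9759 at 1877 bases, against 26% of tested genes that could be matched. Its median was 575 bases in the set and 1683 bases over 5939 tested genes. Each annotated transcript of 7 members has 1 exon, which holds for 15.4% of tested genes, while lectin-37Db has 2 exons and CG9759 up to 2. The genes ng3, lcs and CG1678 lie on the X chromosome, lectin-37Db on 2L, CG32071, CG32073 and CG13905 on 3L, and CG8087 and CG9759 on 3R. The gene ng3 overlaps dnc and lectin-37Db overlaps Pax, in both cases on the opposite strand, and whether the authors counted by strand is not given in the sources used here.

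Read support differed among the members. Reads implied by RPKM were computed with the longest transcript and with a depth per library taken as the median over genes with 1 transcript. For lcs, ng3, CG32071, CG8087 and CG13905, each with 1 annotated transcript, the deposited count equalled them, at 51421, 847, 5132, 13023 and 2914 reads over all libraries. For the other 4, each with several transcripts, the count column held only part of them. It had 782 of 19288 implied reads of lectin-37Db (4.05%), 1550 of 19072 of CG32073 (8.13%) and 368 of 13341 of CG9759 (2.76%). For CG1678 the column held 9 of 877 reads (1.03%), so levels of these 4 genes rest on RPKM.

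**Figure D1:**
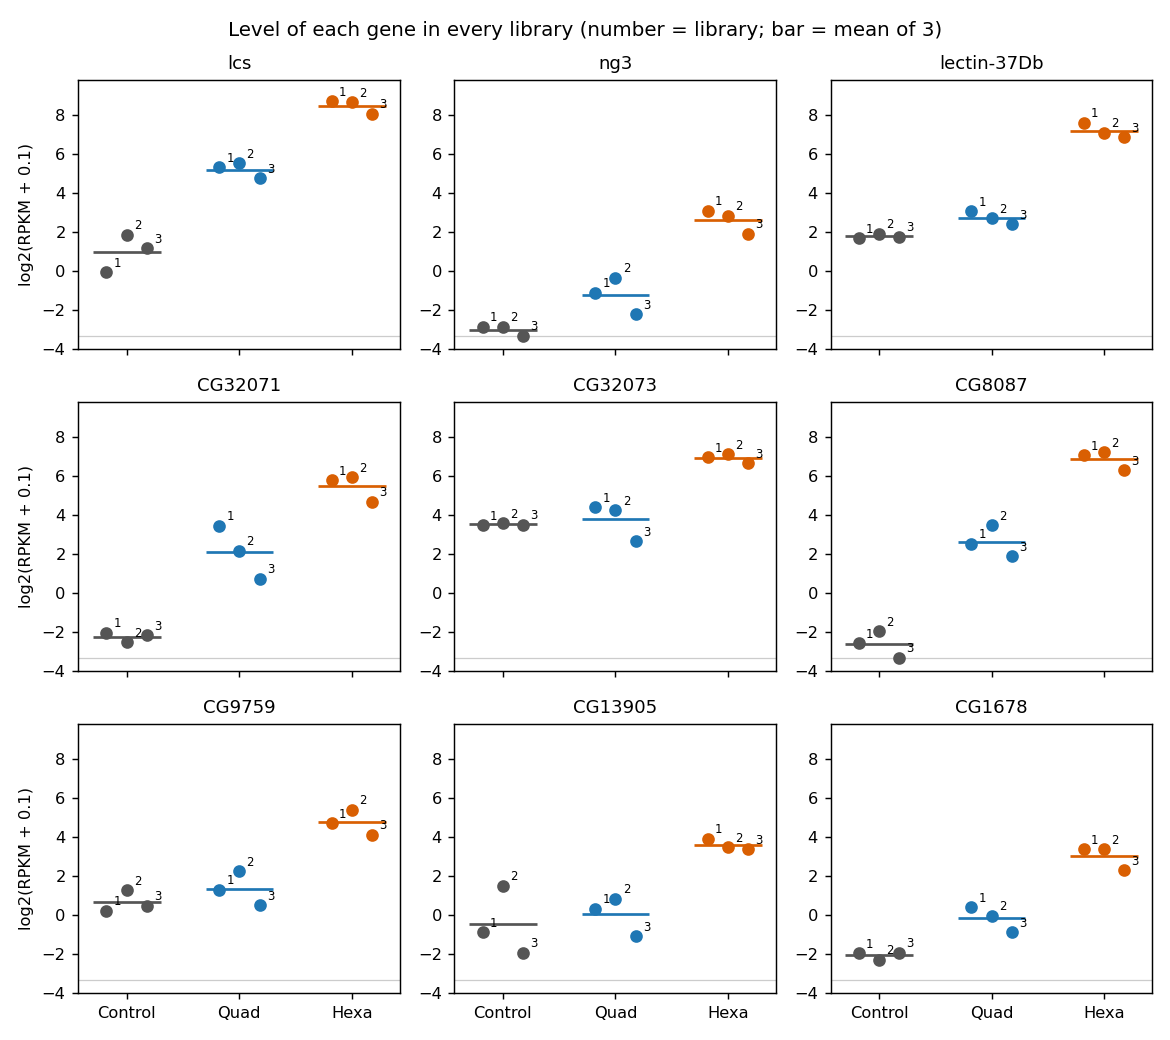
Level of each of the 9 genes in every library as log2(RPKM + 0.1), with Control in grey, Quad in blue and Hexa in orange. Points are single libraries with their number, horizontal bars are means of 3, and the pale line marks an RPKM of 0. In all 9 panels the Hexa libraries lie above every control and every Quad library, and library 3 is the lowest of both Quad and Hexa.

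The new glue gene ng3 was close to the limit of detection in the controls and reached several RPKM in Hexa. It had 0.0366, 0.0362 and 0 RPKM in Controls 1, 2 and 3, from 2, 2 and 0 reads. In Quad it had 0.355, 0.679 and 0.114 RPKM and in Hexa 8.36, 6.95 and 3.63. The 3 groups did not overlap. Scaled to depth, 783 reads in Hexa against 4 in the controls are a ratio of 246. This ratio is a description, and the 4 control reads limit its precision. The difference of ng3 in Quad (log2 1.78 ± 0.477, SE) did not pass the test over all genes (limma adjusted p = 0.0693). It passed in edgeR on the counts (adjusted p = 0.0291). Since ng3 passed the filter on low values only through its levels in Hexa, its tests in Quad add no support.

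The C-type lectin gene lectin-37Db had the steadiest control level of the set relative to its mean after CG32073. It stood at 3.11, 3.65 and 3.26 RPKM in the controls, 8.30, 6.37 and 5.12 in Quad embryos and 193, 136 and 115 in Hexa embryos. All Quad libraries were above all controls, and all Hexa libraries far above both. In Hexa it was higher than the control by log2 5.40 ± 0.217. The rise in Quad was smaller (log2 0.94 ± 0.217, limma adjusted p = 0.0425). It did not pass when a single control, Quad 1, Quad 2 or Hexa 2 was left out (adjusted p up to 0.158), with a pseudocount of 1 or with no filter on low values. On the deposited counts, which hold few of its reads, the difference was log2 0.31 (adjusted p = 0.858 in edgeR and 0.896 in DESeq2).

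The gene lcs had the highest level of the set in Hexa. It stood at 0.847, 3.48 and 2.12 RPKM in the controls, 39.6, 45.9 and 26.7 in Quad embryos and 412, 403 and 267 in Hexa embryos. Quad lay between the other groups without overlap. CG1678, the next tested gene on the X chromosome, followed the same order at a far lower level. It had 0.158, 0.104 and 0.163 RPKM in the controls, 1.23, 0.874 and 0.44 in Quad embryos and 10.2, 10.2 and 4.84 in Hexa embryos. Both rose in Quad, lcs by log2 4.22 ± 0.446 (limma adjusted p = 0.00105) and CG1678 by log2 1.88 ± 0.38 (adjusted p = 0.0234). CG1678 passed the filter on low values only through its levels in Hexa, so its call in Quad adds no support. It could not be tested in the fit of control and Quad alone. The call of CG1678 was lost with a pseudocount of 1 and without any 1 of the controls, Quad 1 or Quad 2 (adjusted p up to 0.184).

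CG32071 and CG32073 are also next to each other among tested genes, on 3L, but had very different control levels. CG32071 stood at 0.144, 0.0712 and 0.123 RPKM in the controls, from 14 reads in all. In Quad it varied widely, at 10.8, 4.37 and 1.55 RPKM, and in Hexa it had 54.8, 61.2 and 25.3. Its rise in Quad was log2 4.36 ± 0.622 (limma adjusted p = 0.00586). CG32073 was the member with the highest control level, at 11.02, 11.74 and 11.26 RPKM, and had 125, 139 and 99.4 in Hexa. In Quad it had 21.01, 18.8 and 6.18 RPKM, so that Quad 1 and Quad 2 were above and Quad 3 below all controls, and the difference did not pass (log2 0.25 ± 0.4, limma adjusted p = 0.787). Without Quad 3 it passed (log2 0.80, adjusted p = 0.0364).

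CG8087 showed the largest difference from the control of all tested genes in Hexa on the log2(RPKM + 0.1) scale (log2 9.47 ± 0.463). Its control libraries had 0.0675, 0.156 and 0 RPKM from 3, 7 and 0 reads. Quad had 5.66, 10.95 and 3.61 RPKM, and Hexa 133, 148 and 77.9. The rise in Quad was log2 5.25 ± 0.463 (limma adjusted p = 3.52e-04). Reads of CG8087, scaled to depth, were 88.2 times those of the controls in Quad. The exact binomial 95% interval of 47.7 to 185 covers counting error only.

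CG9759 and CG13905 were high in Hexa and showed no difference in Quad past the threshold. CG9759 stood at 1.06, 2.30 and 1.28 RPKM in the controls, 2.36, 4.59 and 1.33 in Quad embryos and 26.2, 42.4 and 17.2 in Hexa embryos, with Quad and control overlapping (log2 0.70 ± 0.485, limma adjusted p = 0.467). CG13905 had 0.44, 2.73 and 0.159 RPKM in the controls, the widest spread in the set, 1.14, 1.69 and 0.372 in Quad and 14.96, 10.96 and 10.3 in Hexa. Its Quad libraries lay within the range of the controls (log2 0.47 ± 0.818, adjusted p = 0.805).

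The Quad libraries took no part in the choice of the genes, so Quad against control is the comparison in which the set was tested. The controls did take part, since a low control level was asked for. In Quad 5 of the 9 rose (lcs, CG8087, CG32071, CG1678 and lectin-37Db) and none fell, where 2.16% of the 6190 tested genes rose and 2.52% fell. CG1678 and ng3 passed the filter only through their levels in Hexa, so neither adds support here. In the fit of control and Quad alone, 7 of the 9 could be tested and 4 rose. On the deposited counts edgeR and DESeq2 each called 4, which were lcs, CG8087, CG32071 and ng3. The median difference of the 9 was log2 1.78, which is the value of ng3, against 0.02 over all tested genes. In 6 of the 9, with ng3 and CG1678 among them, every Quad library was above every control, as in 15.2% of tested genes. The number that passed was 3 without any 1 of the controls, Quad 1 or Quad 2, 4 without Hexa 2 and 7 without Quad 3. The calls of lcs, CG8087 and CG32071 were kept in each of these fits.

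On the log2(RPKM + 0.1) scale, differences from the control ran from log2 0.25 (CG32073) to 5.25 (CG8087) in Quad and from log2 3.39 (CG32073) to 9.47 (CG8087) in Hexa, and both comparisons share the control libraries. The order of the genes depends on the scale: with a pseudocount of 1 the Hexa difference was lowest for ng3 (log2 2.78) and highest for lcs (log2 6.91). Hexa was above Quad by log2 3.14 to 4.46 in the 9 genes, a median of 3.40 against 0.06 over all tested genes, of which 13.5% rose and 9.63% fell between Quad and Hexa. By mean RPKM, the ratio of Hexa to Quad was 7.9 for CG32073, 9.65 for lcs, 17.8 for CG8087 and 22.4 for lectin-37Db. All 9 had every Hexa library above every control and every Quad library, which the choice of the genes favours. Over all tested genes this held for 28% against the control and 28.6% against Quad. In the ranking of all tested genes by the difference between Hexa and control, the 9 took places 1 (CG8087), 7, 8, 15, 17, 21, 32, 36 and 54 (CG32073).

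**Figure D2:**
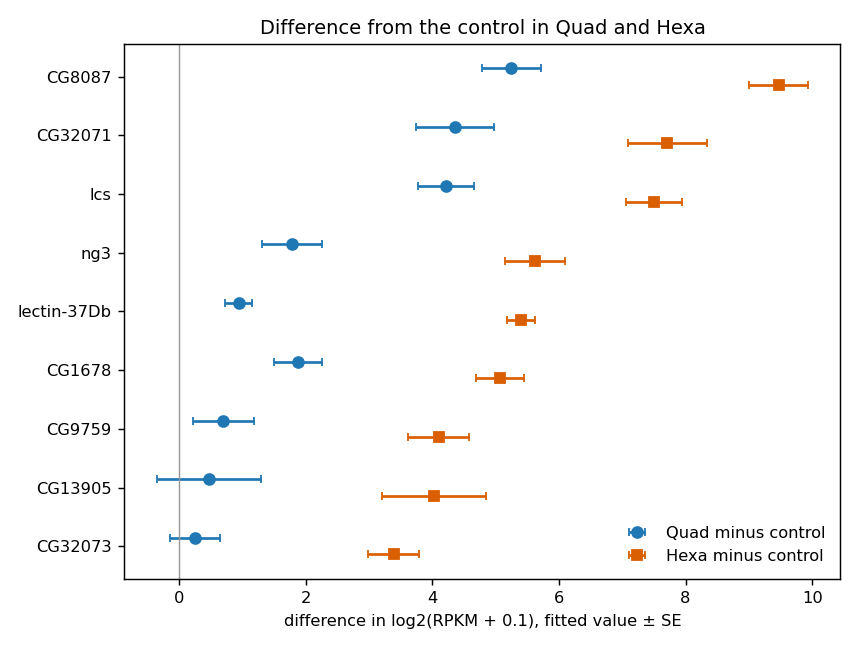
Fitted difference from the control in log2(RPKM + 0.1) for the 9 genes, Quad as blue circles and Hexa as orange squares, with bars of 1 SE from the fit of all 9 libraries. CG8087, CG32071 and lcs differ from the control by more than log2 4 in Quad, while the Quad values of CG9759, CG13905 and CG32073 lie under log2 1.

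Libraries of the same genotype did not carry the 9 genes at the same level. Quad 3 was the lowest of the Quad libraries for all 9 genes, where it was the lowest for 27% of tested genes. Hexa 3 was likewise the lowest of the Hexa libraries for all 9, against 36.5% of tested genes. Of the controls, Control 2 was the highest for 6 of the 9 genes, against 49.8% of tested genes. With the group means removed, all 36 pairs of members had a positive correlation over the 9 libraries, with a median of 0.62 and a range of 0.16 (CG13905 and CG1678) to 0.95 (CG32071 and CG1678). These values share libraries, include the low values in Quad 3 and Hexa 3 just given, and are a description. They were not set against pairs of other tested genes.

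The driven genes and other gene lists had their own order of libraries. In Quad hb was lowest in Quad 3, as were the 9 genes, whereas in Hexa hb and wor were lowest in Hexa 2. Heat shock genes, given as the mean of 16 genes relative to the control mean, were at log2 0.84, 2.28 and 2.62 in Hexa 1, 2 and 3, at 0.74, -0.83 and -0.24 in Quad and at 0.25, -0.66 and 0.41 in the controls. In Hexa the 9 genes were thus lowest in the library with the highest heat shock mean. Control 2, the highest control for lcs, lectin-37Db, CG32073, CG8087, CG9759 and CG13905, had the highest mean of 9 genes of the wound response (log2 0.84, against -0.36 and -0.48 in Controls 1 and 3). It also had the highest mean of 6 target genes of the JAK-STAT pathway (log2 0.94, against -0.41 and -0.54). The part of these differences in the levels of the 9 genes was not tested.

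**Figure D3:**
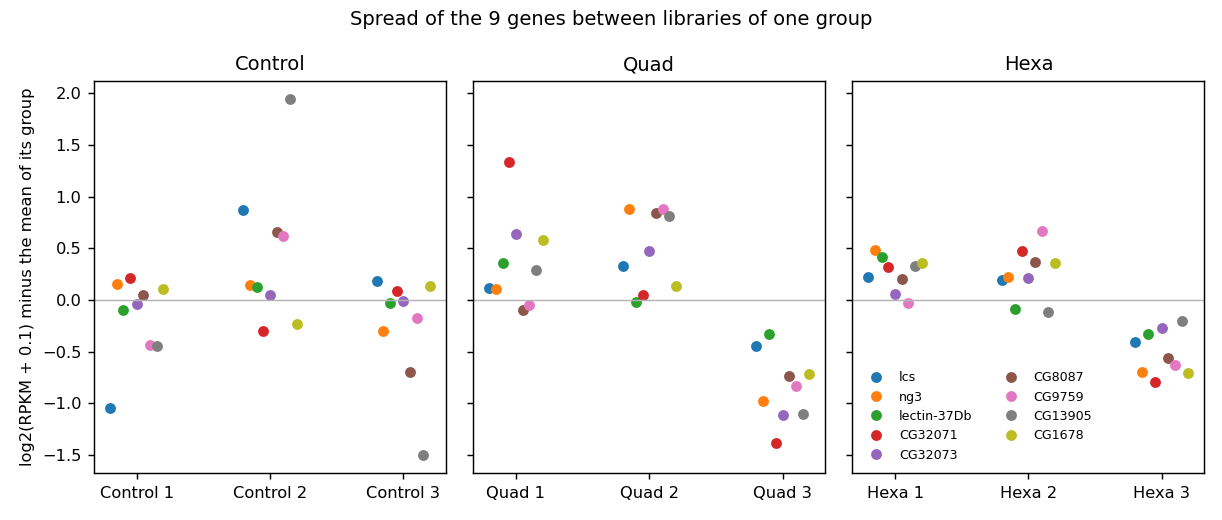
Each of the 9 genes in every library as log2(RPKM + 0.1) minus the mean of its group, with 1 colour per gene. All 9 points lie below 0 in Quad 3 and in Hexa 3, and the controls show no common order apart from high values of lcs, CG8087, CG9759 and CG13905 in Control 2.

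Genes beside the members on the chromosome were examined next, because 4 of the 9 lie in pairs next to each other. The 3 nearest tested genes on each side were taken by the order of the annotation, 42 different genes without the members. Of these, 23 passed the test in Hexa (54.8%), where 32.3% of all tested genes did. They comprised 18 that rose (42.9%, against 19.1% of all) and 5 that fell, and the median difference of the 42 was log2 0.52, against 0.03 over all genes. A rise of at least log2 2, a size chosen after the values were seen, was found in 10 of the 42 (23.8%), against 2.50% of all tested genes. Among them, ng1 and ng2 passed the filter on low values only through their levels in Hexa. At least 1 of these 10 lay among the neighbours of each member except CG13905. The number that passed was 15 of 42 without Control 1, 13 of 39 without Hexa 1 and 13 of 41 in the fit of the 2 groups alone. Calls over all tested genes fell too, from 1997 of 6190 to 930 of 6139, 972 of 6119 and 926 of 6034 in these fits.

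Of the other new glue genes, ng1 and ng2 rose in Hexa and ng4 did not pass the test. Next to ng3, ng1 went from 0.0415, 0 and 0 RPKM in the controls to 4.68, 5.37 and 2.68 in Hexa (log2 5.22 ± 0.37, limma adjusted p = 3.23e-05). On the other side of ng3, ng2 was at 0 reads in every control and had 1.91, 2.65 and 1.12 RPKM in Hexa (adjusted p = 4.74e-04). Against a floor of 3 reads over the 3 controls, ng2 was at least 90.1-fold higher. Reads of ng1 and ng2 may be shared, since these genes are close copies. Pig1, the next gene but one, rose from 1.61 to 15.3 RPKM in Hexa (log2 3.41, adjusted p = 0.0027). The fourth new glue gene ng4, which lies between ng1 and Pig1, stood at 0.451 RPKM in the controls and 0.452 in Hexa (log2 -0.06 ± 0.428, adjusted p = 0.916). In Quad ng1 was higher by log2 1.65 (adjusted p = 0.0379) but did not pass when any single control or Quad library was left out (adjusted p up to 0.131). Both ng1 and ng2 passed the filter on low values only through their levels in Hexa, so their tests add no support here.

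Among the remaining salivary gland genes that were tested, 1 of 5 rose in Hexa, where 19.1% of all tested genes rose. Of the other glue genes listed, Sgs7 was tested and was at 1.85 RPKM in the controls and 1.12 in Hexa (limma adjusted p = 0.117), and Sgs1, Sgs3, Sgs4 and Sgs5 stayed under 0.5 RPKM in every library, with 0.212 for Sgs3 as the highest value among them. Of 11 listed salivary gland markers 4 were found by name in the deposited table, and these 4 were tested. One marker in 4 rose, the transcription factor gene hkb (5.46 against 2.83 RPKM, log2 0.93, adjusted p = 0.0049). The summed level of the 4 markers was 13.6 to 16.5 RPKM in the controls, 17.2 to 17.7 in Quad and 14.6 to 20.6 in Hexa. PH4alphaSG1, a prolyl hydroxylase gene of the salivary gland, was at 5.69 RPKM in the controls and 6.66 in Hexa (adjusted p = 0.382). The transcription factor gene sage went from 4.35 to 3.29 RPKM (log2 -0.44, adjusted p = 0.141), a difference that edgeR and DESeq2 on the counts called, and eyg from 2.32 to 2.41 (adjusted p = 0.913).

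The 3 genes around CG8087 rose in Hexa by log2 6.24 to 8.77 and were already high in Quad. CG14852 went from 2.55, 4.70 and 1.96 RPKM in the controls to 552, 593 and 591 in Quad and to a mean of 1330 in Hexa, a rise of log2 7.60 in Quad and 8.77 in Hexa. CG14850, named Jig in the annotation, was at 0.333, 0.806 and 0.514 RPKM in the controls, 175, 167 and 164 in Quad embryos and 176, 215 and 111 in Hexa embryos. Its mean was 169 RPKM in Quad and 167 in Hexa, whereas CG8087 was at 6.74 RPKM in Quad and 120 in Hexa. CG14851 rose to a mean of 134 RPKM in Quad and 364 in Hexa from 4.61. All 3 had a limma adjusted p of 1.25e-06 in Quad and of 5.09e-07 or less in Hexa. CG14854, on the far side of CG14850, did not pass (log2 0.54, adjusted p = 0.0743).

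Neighbours of the other members also passed the test. CG12522, next to CG32073, went from 1.17 RPKM to 12.2 in Quad and 58.2 in Hexa (log2 5.67, limma adjusted p = 3.19e-04), and it rose in Quad by log2 3.27 (adjusted p = 0.0124), though not with Quad 1 left out (adjusted p = 0.0549). CG10918, the next tested gene after CG1678, went from 1.58 to 27.8 in Quad and 129 in Hexa (log2 6.43, adjusted p = 4.19e-05). Beyond CG10918, Cyp6t1, a cytochrome P450 gene, went the other way and fell from 1.84 to 0.303 RPKM in Hexa (log2 -2.24, adjusted p = 6.56e-04). CG9757, next to CG9759, rose from 34.7 to 227 RPKM in Hexa (log2 2.68, adjusted p = 1.03e-04), and in Quad it had 51.4 (adjusted p = 0.207). Around CG13905 no neighbour rose by log2 2, and the largest rise was that of nerfin-1, a gene of neuronal differentiation (log2 0.51, adjusted p = 0.0269), which was lost without Hexa 1, without any single control (adjusted p up to 0.0613) and in edgeR and DESeq2.

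**Figure D4:**
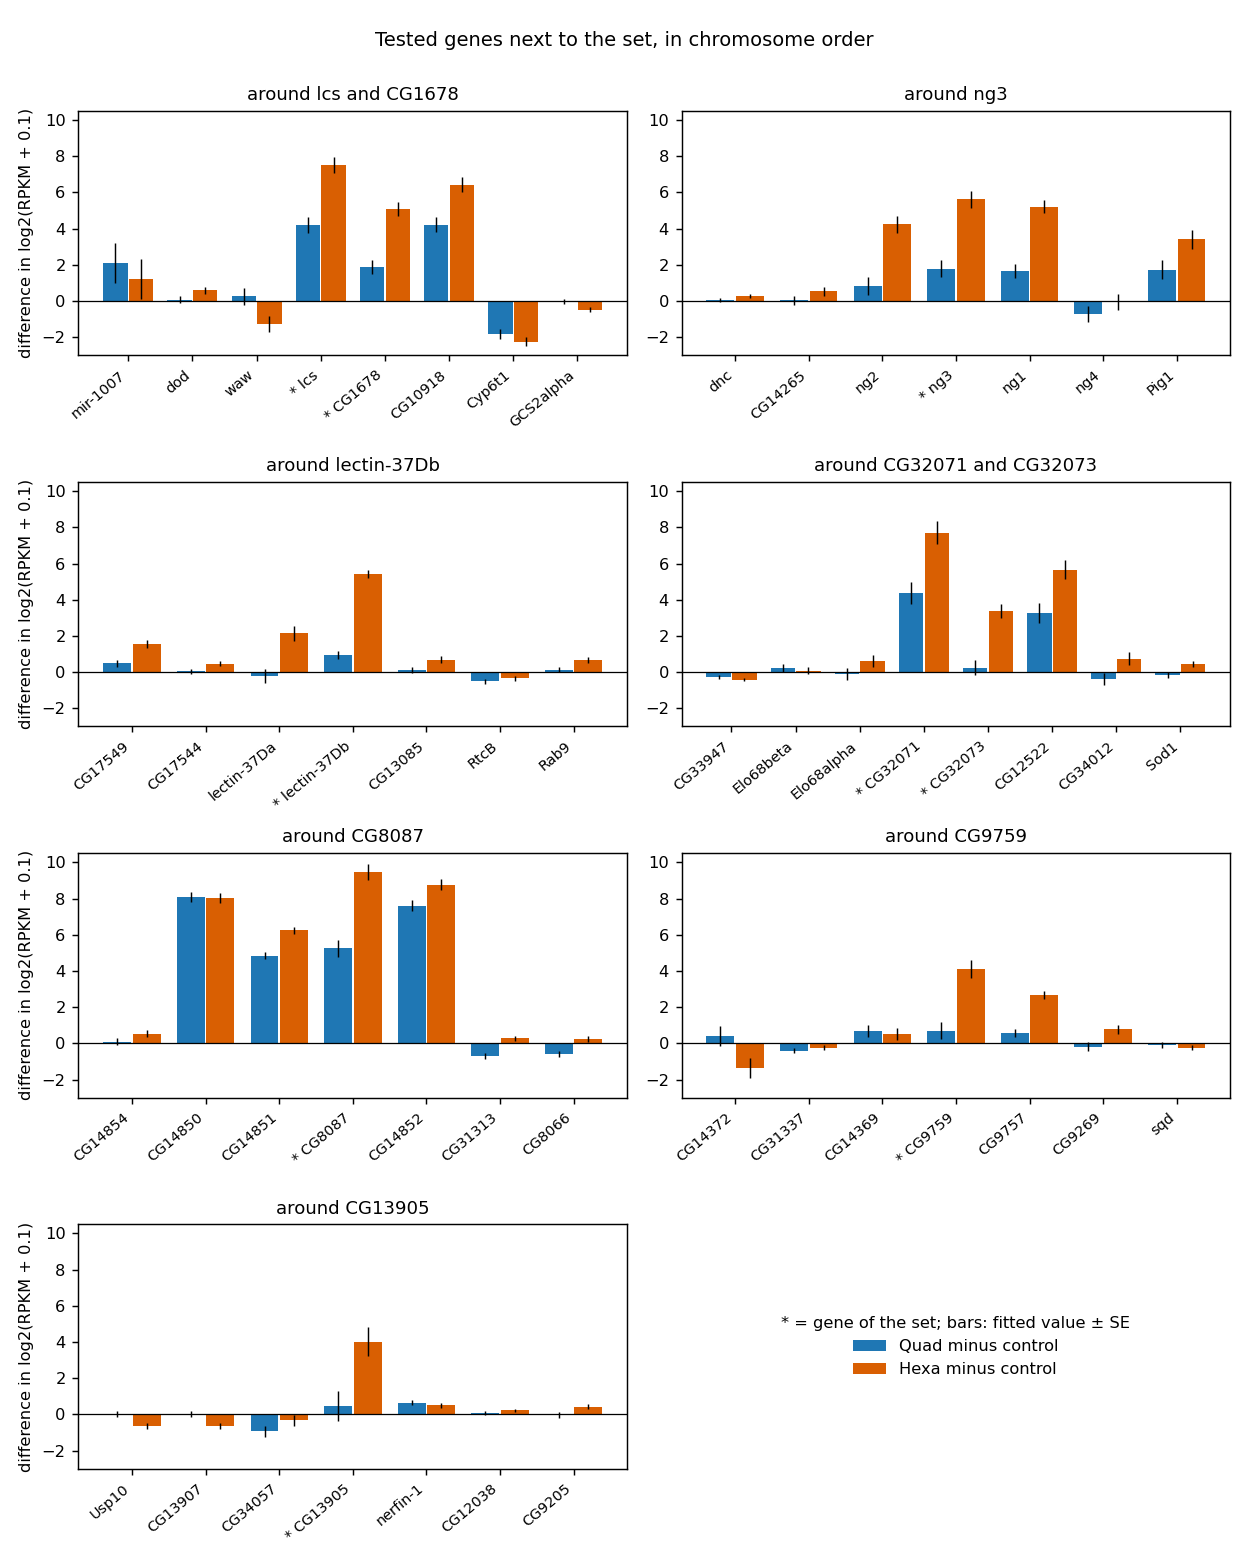
Fitted difference from the control in log2(RPKM + 0.1), Quad in blue and Hexa in orange with 1 SE, for the members (marked with a star) and the 3 tested genes on each side in chromosome order. Tall bars stand side by side around lcs, ng3, CG32071 and CG8087, while CG13905 stands alone.

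Values of other C-type lectin genes are given beside those of lectin-37Db. The adjacent gene lectin-37Da rose from 0.961, 0.917 and 1.72 RPKM in the controls to 7.75, 4.68 and 4.35 in Hexa (log2 2.14 ± 0.4, limma adjusted p = 0.0059) and was at 1.10 in Quad (adjusted p = 0.834). Its rise rests on RPKM, since the count column held 5 of its reads, and edgeR without a filter on low counts did not call it. Of the 5 tested lectin genes other than lectin-37Db, 1 rose and 1 fell in Hexa, with a median of log2 -0.43. Over all tested genes 19.1% rose and 13.1% fell. The fallen gene, lectin-28C, went from 7.82 to 5.05 RPKM (adjusted p = 0.00501), a call not made by edgeR. The remaining 3 did not pass, lectin-24A among them with 5.43 RPKM in the controls and 2.00 in Hexa (adjusted p = 0.103), which edgeR and DESeq2 on the counts did call.

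The genes whose pattern over the 9 libraries was most like the mean of the set were found by correlation of log2(RPKM + 0.1) among 3054 genes that spanned at least 1 log2 unit. In 241 of them r was above 0.9, so a similar pattern was common in these libraries. The 8 with the highest r (0.984 to 0.993) were CG33128, CG11659, CG6300, ng1, CG7882, Peritrophin-15a, MtnC and CG5770. CG33128 went from 10.7 ± 4.05 (SD, n = 3) RPKM in the controls to 27.2 ± 6.64 in Quad and 191 ± 43.9 in Hexa. Peritrophin-15a, which encodes a chitin-binding protein of the peritrophic matrix that lines the gut, went from 7.82 ± 2.63 to 17.0 ± 6.39 and 126 ± 37.4. MtnC, a gene of a metal-binding metallothionein, went from 0.582 ± 0.214 to 1.72 ± 0.531 and 7.57 ± 2.94. Gene by gene, the closest were Tsf1, the transferrin gene, for lectin-37Db (r = 0.995), CG8369 for CG9759 (r = 0.999) and PGRP-SB2, a peptidoglycan recognition protein gene, for CG32071 (r = 0.977). For CG13905 it was Drs, which encodes the antifungal peptide drosomycin (r = 0.974), and for lcs and CG8087 it was CG10918 (r = 0.990 and 0.988), with CG14606 as close to CG13905 and CG12522 as close to lcs.

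Markers of cell types in the embryo are given beside the set. Over all tested genes 19.1% rose and 13.1% fell in Hexa, against which these counts are to be read. Of 8 tested markers of the Malpighian tubules, the excretory organ of the fly, 5 rose in Hexa and none fell, with a median of log2 0.91 and a summed level of 115 to 153 RPKM in the controls, 151 to 159 in Quad and 210 to 252 in Hexa. The zinc transporter gene ZnT35C rose to 41.1 from 7.28 RPKM (log2 2.49, limma adjusted p = 7.19e-06) and the urate oxidase gene Uro to 1.26 from 0.0599 (log2 3.18, adjusted p = 0.0118). Uro passed the filter on low values only through its levels in Hexa. The potassium channel genes Irk2 (log2 1.24) and Irk3 (log2 0.76) and the vitamin transporter gene Smvt (log2 1.06) passed in Hexa too. In Quad, ZnT35C was already at 35.3 RPKM (log2 2.27, limma adjusted p = 1.32e-05). Irk3 also passed in Quad (log2 0.57, limma adjusted p = 0.00894), though not in edgeR or DESeq2. Of 11 midgut markers 3 rose and none fell in Hexa (median log2 -0.14), and 2 fell in Quad. The Hexa calls of Jon65Aiv and Mal-A1 were lost with the 2 groups alone and in edgeR, and that of Amy-p in edgeR and DESeq2. In Quad the call of Jon65Aiv was lost without any single control or Quad library. Of 9 blood cell markers 7 fell and none rose in Hexa (median log2 -0.55), with a summed level of 223 to 257 RPKM in the controls and 138 to 185 in Hexa. Among the 7, NimC4 and PPO1 kept their calls in every setting. The calls of Pxn, srp, PPO2, NimC1 and ush were lost in some. Antimicrobial peptide genes rose in 5 of 11 cases and fell in 2. Only the calls of Drsl6 and AttA among them were kept in every setting. Of 9 genes of the wound response none rose and 2 fell, and of 8 ecdysone response genes none rose and 4 fell. Eip74EF is in both lists and is counted among the falls of each. No call in either list was kept in every setting. Of 16 heat shock genes 10 rose and none fell. The calls of Hsp68, Hsp67Ba, DnaJ-1, Hsp70Aa, Hsp70Ab and Hsp22 were lost without Control 1, among other settings. Of 3 epidermis markers 2 fell and none rose (median log2 -0.57), and of 4 trachea markers 2 fell and none rose (median log2 -0.41). These calls, of knk, ovo, serp and verm, were lost in the fit of the 2 groups alone. Of 3 muscle, 3 fat body and 4 germ cell markers 1 each fell. The germ cell marker that fell was ovo, which is also 1 of the 2 epidermis markers that fell. The call of the muscle marker, Mhc, was lost when any single library was left out. That of the fat body marker, apolpp, was lost with the 2 groups alone and in edgeR and DESeq2. The 4 tested markers of glia and the single one of neurons had no call in Hexa, and of 6 targets of the JAK-STAT pathway 1 rose. That target was TotC, whose call was lost without any single control or Hexa library. The part of these cell types in the levels of the 9 genes was not tested.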

How the data were processed

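Per the file headers, the table that the authors deposited gives read counts and log2 RPKM for 10221 genes in each library. A further 9 columns of linear RPKM were not used. Aligner, counting software and genome build are not given in the sources used here; no coordinates are printed. Log2 RPKM at the deposited floor of -10.86 was set to 0 RPKM. The count column misses part of the reads of many genes with several transcripts. The main test was therefore limma 3.58.1 (trend, robust; R 4.3.3) on log2(RPKM + 0.1). It fitted all 9 libraries together with group as the only term, and p-values were adjusted by Benjamini-Hochberg over the 6190 genes that reached 0.5 RPKM in 3 or more libraries. An adjusted p under 0.05 was a call. Fold changes on this scale understate those of low genes. As alternatives, edgeR 4.0.16 and DESeq2 1.42.0 were run on the deposited counts. Names were matched to BDGP 6.54 (Ensembl), 9777 in all, for transcripts and gene order.

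The members, lists and tests were chosen with earlier results of these data known. The rule for named genes took all members, called neighbours, the 8 genes most like the set and the 2 closest per member, and up to 4 genes per described list with the smallest p. Of these, not all are named: called neighbours that rose by less than log2 2 or fell, apart from nerfin-1 and Cyp6t1, and some of the closest and list genes were left out after their values were seen. Uro, CG14854 and the untested glue genes were added likewise. List names were matched with upper and lower case kept. On simulated data (Quad against control, 5940 genes) limma recovered 76.0% of 2-fold and 94.0% of 4-fold changes, and 3.4% of its calls were false. Changes were placed only in genes with higher control levels than those of ng3, CG32071, CG8087, CG1678 and CG13905. These rates therefore do not cover genes as low as those members, and Hexa was simulated without change.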

Additional observations from a re-analysis of the deposited data

How the results depend on the processing

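The differences of the 9 genes between Hexa and control stayed positive in all 179 values computed under alternatives, the lowest being log2 2.65 for CG9759 in edgeR, and 152 of them moved by less than the spread between replicates. In Quad, CG32073 turned to log2 -0.07 without Quad 1 (0.80 without Quad 3) and CG13905 to log2 -0.28 without Control 3 (1.44 without Control 2). Members that passed in Quad numbered 3 with a pseudocount of 1 and 3 to 7 with 1 library left out. Leaving out 1 library gave 129 to 365 genes in Quad (290 with all libraries), 930 to 2172 in Hexa (1997) and 441 to 2017 between Quad and Hexa (1431), 13 to 25 neighbours (23) and 29 to 41 list genes (49). In Hexa, 926 genes passed with its 2 groups alone, 1065 in edgeR and 1066 in edgeR without a filter. Between Quad and Hexa edgeR called 705, or 799 without a filter. Neighbours in Hexa numbered 13 with the 2 groups alone, 14 in edgeR and 15 in edgeR without a filter, and list genes 26 with the 2 groups alone and 31 in edgeR. Scaling by TMM changed the split of higher against lower calls from 1184 and 813 to 1060 and 1051 in Hexa, and from 835 and 596 to 730 and 841 between Quad and Hexa. With the replicate number as a block, 226 genes passed in Quad, 1373 in Hexa and 882 between Quad and Hexa. Members in Quad then numbered 6, neighbours 20 and list genes 36. Deviations of same-numbered libraries correlated at -0.152 to 0.179. Control and Quad libraries of the same number correlated at 0.098, 0.179 and 0.147, and those of different numbers at -0.196 to 0.048. For control and Hexa, same-numbered libraries correlated at -0.152, -0.151 and -0.035. These values do not settle whether the numbers pair the libraries. The causes of the differences between settings were not tested. Few reads in the controls limit the folds of ng3, CG32071, CG8087 and CG1678.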
